A study of Mus musculus with 14 samples.

Results

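The genes described here are 7 ligands of the epidermal growth factor (EGF) family (Egf, Nrg1, Hbegf, Areg, Ereg, Tgfa and Btc) and 3 of their ERBB receptors (Egfr, Erbb2 and Erbb3). These 10 genes of the 56980 in the deposited count tables were chosen by their symbols, with their counts in all 4 groups already known, so that their differences between groups are descriptions and not independent tests. RNA-seq was performed on whole kidneys at 18 weeks from 14 wild-type female mice of the outbred strain CD-1, with 1 library per mouse. Term non-diabetic mice (T-ND, n = 4) and preterm non-diabetic mice (PT-ND, n = 3) received no streptozotocin. Term diabetic mice (T-D, n = 4) and preterm diabetic mice (PT-D, n = 3) received streptozotocin (STZ), a toxin of the insulin-producing beta cells, in repeated low doses as young adults. Preterm mice were delivered by Caesarean section shortly before term and raised by foster mothers given acepromazine, whereas term mice were born naturally and stayed with their own mothers, so preterm birth cannot be told apart from delivery, fostering and that drug. Some PT-D mice of the study but no T-D mice received another round of STZ, and which libraries came from the redosed mice was not given. Where PT-D is compared with T-D, preterm birth therefore cannot be told apart from this extra STZ. The same holds where the difference with STZ is compared between preterm and term mice.

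EGF family ligands are made as membrane-anchored precursors, and metalloproteases such as ADAM10 and ADAM17 cut them free. EGF, TGF-alpha, amphiregulin (Areg), epiregulin (Ereg), betacellulin (Btc) and HB-EGF bind the EGF receptor (Egfr), whereas neuregulin 1 (Nrg1) binds ERBB3 and ERBB4. ERBB2 has no known ligand and acts as the preferred partner of the other receptors, and ERBB3 has a very weak kinase and signals mainly through such partners. In the kidney, Egf is made in abundance in the thick ascending limb and the distal convoluted tubule, its protein is shed into the urine, and EGF promotes magnesium uptake in the distal convoluted tubule.

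Each ligand carries the EGF-like fold, a stretch with 6 cysteines held by disulfide bonds, through which it meets its receptor. The coding sequences of this stretch, read from the Ensembl canonical transcripts of GENCODE release M39 on GRCm39, are shown for 6 ligands because the spacing of the cysteines is what unites genes that otherwise differ in length and level. They run from the first to the last cysteine codon, 5′ to 3′, with cysteine codons in capitals.
Egf: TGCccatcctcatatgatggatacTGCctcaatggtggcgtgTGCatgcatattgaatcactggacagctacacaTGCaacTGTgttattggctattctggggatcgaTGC
Tgfa: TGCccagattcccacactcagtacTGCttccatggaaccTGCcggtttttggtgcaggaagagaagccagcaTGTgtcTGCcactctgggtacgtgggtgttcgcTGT
Areg: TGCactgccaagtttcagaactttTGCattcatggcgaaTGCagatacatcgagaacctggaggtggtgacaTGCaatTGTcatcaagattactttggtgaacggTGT
Btc: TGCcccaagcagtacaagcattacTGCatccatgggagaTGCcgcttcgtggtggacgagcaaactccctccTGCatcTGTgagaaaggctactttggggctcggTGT
Ereg: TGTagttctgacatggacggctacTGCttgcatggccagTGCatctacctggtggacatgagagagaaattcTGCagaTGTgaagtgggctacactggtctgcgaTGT
Nrg1: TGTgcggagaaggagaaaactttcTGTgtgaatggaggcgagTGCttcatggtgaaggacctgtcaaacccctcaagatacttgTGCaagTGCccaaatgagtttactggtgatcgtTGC
In each of these 6 genes the stretch was spliced from 2 coding exons. The ends lay at chr3:129479971-129484499 for Egf, chr6:86240182-86246942 for Tgfa, chr5:91291473-91292223 for Areg, chr5:91510280-91514056 for Btc, chr5:91236355-91236970 for Ereg and chr8:32327726-32339426 for Nrg1, with Egf, Btc and Nrg1 on the minus strand. The stretch was searched for by its cysteine spacing. The search fixed 7 codons between the first pair of cysteines, 8 between the last pair, and 1 between the pair before that. It allowed 4 or 5 codons after the first pair and 10 to 13 in the next loop. After the first pair, Egf and Nrg1 had 5 codons before the next cysteine and Tgfa, Areg, Btc and Ereg had 4. In the loop after that one Nrg1 had 13 codons and the other 5 genes had 10, so that the Nrg1 stretch was the longest of those shown, with 120 bases against 111 in Egf and 108 in Tgfa, Areg, Btc and Ereg. Among those 4 genes of equal length, Tgfa and Btc shared the most bases at the same position (62.0%) and Tgfa and Ereg the fewest (45.4%). The 28 of 33 coding Nrg1 transcripts in which this search found the stretch carried 2 versions of it, and counts per gene do not tell these apart.

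On GRCm39, Areg, Ereg and Btc are neighbours on chromosome 5, at chr5:91287451-91296291, chr5:91222157-91241505 and chr5:91505120-91550883. Egf lies at chr3:129470410-129549093, Tgfa at chr6:86172041-86252728, Nrg1 at chr8:32303906-33374825 and Hbegf on chromosome 18. Among the receptors, Egfr lies at chr11:16702198-16868158, Erbb2 at chr11:98303203-98328542 and Erbb3 at chr10:128403392-128425811. The symbol Nrg1 also matched a second identifier, which had no count in any library and was left out.

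Libraries held between 16697246 and 28673176 counts on genes. Ccng1, a p53 target chosen after its values were seen, lay between 2965 and 3928 normalized counts in the libraries without STZ and between 6812 and 10242 in those with it. Because of that choice, this describes the libraries and is not an independent check of their STZ labels. On the first principal component (23.9% of the variance of the 500 most variable genes), T-ND replicate 3 lay at 13.94 and T-ND replicate 4 at -3.32, whereas T-ND replicates 1 and 2 lay at -27.6 and -27.16 and 3 of the 4 T-D libraries between 15.46 and 22.96. Results that rest on the T-ND group are therefore also given without replicates 3 and 4. The names of 5 libraries carry a suffix a (T-ND replicates 1 and 2, and replicate 1 of T-D, 2 of PT-ND and 1 of PT-D), whose meaning was not given. Summed markers of the proximal tubule lay between 11900 and 16100 CPM (counts scaled to library size) in PT-D and between 18200 and 19100 in PT-ND, without overlap. They lay between 14600 and 17900 in T-ND and between 14600 and 17000 in T-D. Of the 5 adrenal markers, 2 were at 0 in every group.

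Levels of different genes were compared as CPM per kilobase of exon. By the median of 14 libraries on this scale the order was Egf (61.8), Erbb3 (11.6), Erbb2 (6.31), Hbegf (4.51), Egfr (4.26), Btc (1.67), Nrg1 (1.41), Tgfa (1.12), Areg (0.188) and Ereg (0.0179). Egf stood clear of the next gene, with libraries between 39.5 and 88.9 on this scale against 7.42 to 24.3 for Erbb3. Egfr, with its lowest library at 2.97, also stood clear of Btc, whose highest library lay at 2.8. All other neighbours in this order overlapped in their ranges over libraries.

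**Figure D1:**
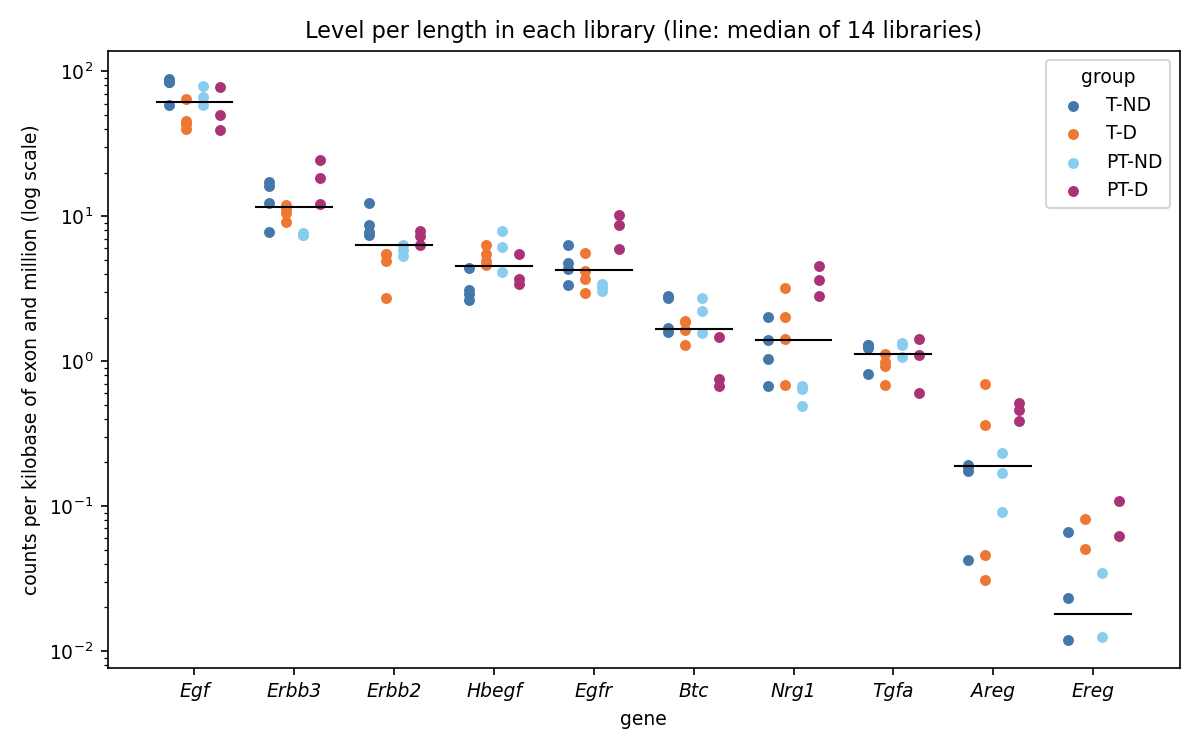
CPM per kilobase of exon (log scale) of the 10 genes, one point per library, coloured by group, with the median of the 14 libraries as a line. Egf lies above every other gene in every library, and the 5 libraries in which Ereg had no count are not drawn.

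Egf, the most abundant ligand, was lower in T-D than in T-ND libraries on average. T-ND libraries held 20739, 14498, 20869.7 and 21995 normalized counts of Egf, and T-D libraries 16020.4, 9967, 11219 and 10787. PT-ND libraries held 19489.6, 16346 and 14528, and PT-D libraries 19408, 9758 and 12346. T-D replicate 1 lay above T-ND replicate 2, and PT-D replicate 1 lay among the PT-ND libraries, so that the groups overlapped with and without STZ. Group means were 19530 ± 3400 in T-ND (SD, n = 4), 12000 ± 2730 in T-D (n = 4), 16790 ± 2510 in PT-ND (n = 3) and 13840 ± 4990 in PT-D (n = 3).

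Nrg1, the ligand of ERBB3 and ERBB4, differed most between PT-D and PT-ND mice. PT-ND libraries held 166, 227 and 216 normalized counts of Nrg1 and PT-D libraries 1220.3, 955 and 1532. T-ND libraries held 347, 676, 473 and 228, and T-D libraries 231, 1083, 482 and 678. Every PT-D library thus lay above every T-ND and PT-ND library, whereas T-D libraries spread from near the PT-ND level into the PT-D range.

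Hbegf, a heparin-binding ligand that is an early response gene, had the opposite order in term and preterm mice. T-ND libraries held 301, 319, 456 and 273 normalized counts and T-D libraries 658, 568, 506 and 478, with no overlap. PT-ND libraries held 824, 638 and 428 and PT-D libraries 570.03, 355 and 384, which overlapped. Group means were 337 ± 81.3 in T-ND, 552.3 ± 79.9 in T-D, 630 ± 198 in PT-ND and 436.3 ± 117 in PT-D (SD).

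Btc, a ligand of EGFR and ERBB4, was lowest in PT-D. PT-D libraries held 135, 61.7 and 68.8 normalized counts of Btc and PT-ND libraries 205, 251 and 144. T-ND libraries held 258, 251, 156 and 146, and T-D libraries 171, 151, 120 and 174. All PT-D libraries lay below all T-ND and PT-ND libraries, but PT-D replicate 1 lay within the T-D range.

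The other 3 EGFR ligands were scarce or alike between groups. Tgfa lay between 83 and 197 normalized counts over all libraries, and its lowest and its highest library were both PT-D. Areg had 1 to 15 raw counts per library and Ereg 0 to 13, with 5 of 14 libraries at 0 for Ereg. Areg lay between 9.6 and 12.77 normalized counts in PT-D against 1.05 to 4.75 in T-ND and 2.26 to 5.77 in PT-ND, but 2 T-D libraries were at 9.01 and 17.06. At these counts the counting error of Areg and Ereg is large, and no fold change is given for either.

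Egfr, the receptor of EGF, was highest in PT-D. PT-D libraries held 1389, 2039 and 2393.5 normalized counts of Egfr and PT-ND libraries 762, 717 and 793. T-ND libraries held 1006, 787, 1476 and 1121, and T-D libraries 985, 1294, 857 and 695. Every PT-D library lay above every PT-ND and T-D library, and T-ND replicate 3 reached into the PT-D range.

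Erbb3, the receptor of Nrg1, behaved alike. PT-D libraries held 1559, 2344 and 3101 normalized counts of Erbb3 and PT-ND libraries 947, 976 and 948. T-ND libraries held 1567, 1001, 2052 and 2184, and T-D libraries 1431, 1338, 1535 and 1171. The PT-ND libraries were below all others and close together (SD 16.4), and the T-ND libraries covered most of the range of the remaining groups.

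Erbb2, the partner of both, was highest in T-ND instead. T-ND libraries held 956, 810.1, 848 and 1353 normalized counts of Erbb2 and T-D libraries 602.4, 541, 602.04 and 297. PT-ND libraries held 583, 694 and 645, and PT-D libraries 689.5, 803 and 862. T-ND and T-D libraries did not overlap, nor did PT-D and T-D.

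**Figure D2:**
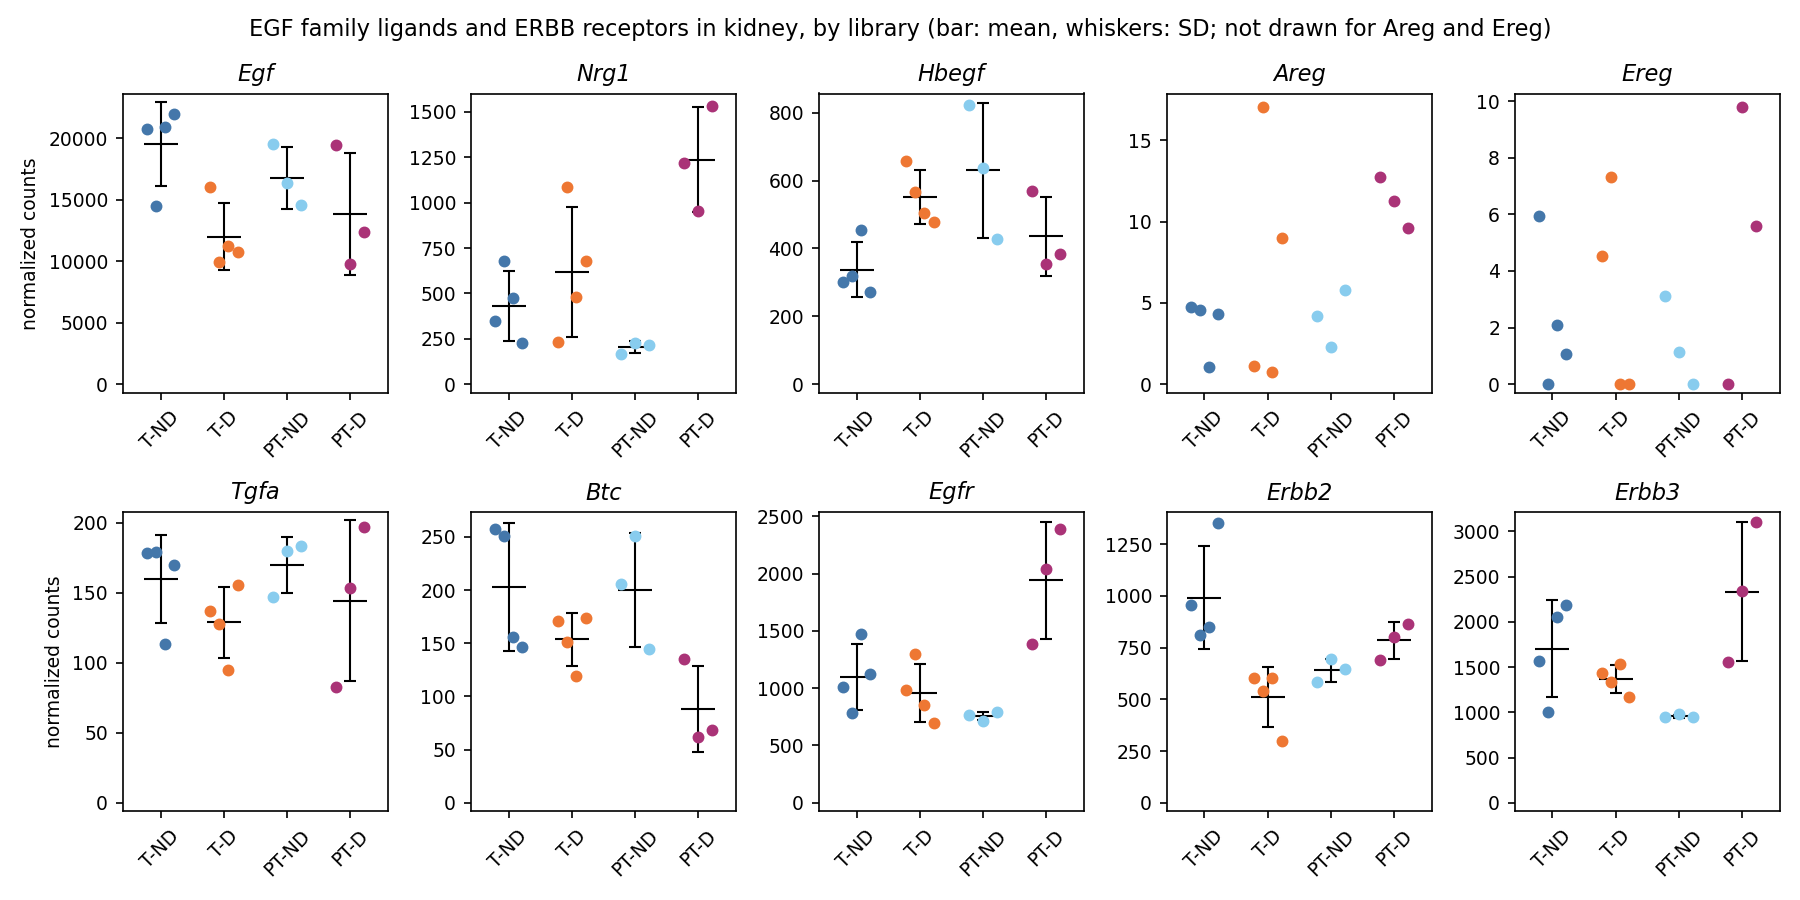
Normalized counts of the 10 genes (vertical axes, linear, one scale per gene), one point per library in the order of replicates, with the mean as a bar and the SD as whiskers except for Areg and Ereg, whose counts are few. The 3 PT-D libraries of Nrg1 sit between 955 and 1532, all above the PT-ND libraries, and those of Btc sit between 61.7 and 135.

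The effect of STZ in preterm mice was read from PT-D vs PT-ND. Nrg1 was 6.09-fold higher in PT-D (log2 fold change 2.61 ± 0.209, SE). Egfr was 2.56-fold (log2 1.36 ± 0.195) and Erbb3 2.44-fold higher (log2 1.29 ± 0.219), and Btc was 2.27-fold lower (log2 -1.18 ± 0.34). A gene was called differentially expressed (DEG) at an adjusted p under 0.05 and an absolute log2 fold change above 1 in edgeR's quasi-likelihood test over all genes. By this rule 4 of the 10 genes were called, where 4.95% of all 22303 genes tested were, with edgeR adjusted p of 0.000382 for Nrg1, 0.00411 for Egfr, 0.0072 for Erbb3 and 0.0446 for Btc. PT-D and PT-ND libraries did not overlap for these 4 and Areg, 5 of 10 genes, against 34.4% of all genes. Erbb2 differed by a log2 fold change of 0.29 ± 0.151 and Egf by -0.28 ± 0.24, neither called. Nrg1, Egfr and Erbb3 were called with each of the 6 libraries left out in turn, and Btc in 1 of the 6 fits, that without PT-D replicate 1. Within the libraries without the name suffix, 2 in each group, the same 4 genes were called, with log2 fold changes of 2.71 for Nrg1, 1.51 for Egfr, 1.52 for Erbb3 and -1.42 for Btc, and the suffix libraries left 1 mouse per group.

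The effect of STZ in term mice was read from T-D vs T-ND. None of the 10 genes was called by edgeR or by DESeq2, where 0.0673% of all genes were called by edgeR, and 3 of the 10 had an unadjusted p under 0.05, as had 11.8% of all genes. These were Erbb2 (log2 fold change -0.97 ± 0.239, edgeR adjusted p = 0.172), Egf (-0.72 ± 0.197, adjusted p = 0.213) and Hbegf (0.70 ± 0.191, adjusted p = 0.211). DESeq2 gave them adjusted p of 0.018, 0.0328 and 0.027, and only the fold change threshold kept them from a call. It called 1.32% of all genes. T-D and T-ND libraries did not overlap for Erbb2 and Hbegf, 2 of 10 genes, against 6.66% of all genes. Nrg1 differed by 0.50 ± 0.409, Egfr by -0.21 ± 0.222 and Erbb3 by -0.33 ± 0.22 on the log2 scale. Without T-ND replicates 3 and 4 none was called either, and the log2 fold changes of Egfr and Erbb3 moved to 0.09 for both.

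Whether the difference with STZ itself differed between preterm and term mice was read from the interaction over all 14 libraries. It was positive for Nrg1 (2.09 ± 0.572 on the log2 scale, edgeR adjusted p = 0.044), Erbb3 (1.60 ± 0.344, adjusted p = 0.0251), Egfr (1.55 ± 0.329, adjusted p = 0.0244) and Erbb2 (1.25 ± 0.317, adjusted p = 0.036). It was negative for Hbegf (-1.24 ± 0.332, edgeR adjusted p = 0.0413). Thus 5 of the 10 genes were called, where 4.45% of all genes were. All 3 receptors were among them, while Egf (0.42 ± 0.329), Tgfa (0.08 ± 0.389) and Btc (-0.78 ± 0.428) were not. Of the 5, none was called without T-ND replicates 3 and 4, where their adjusted p lay between 0.0525 and 0.0885, nor without any one of replicates 2 and 3 of PT-ND and replicate 3 of PT-D. In the 14 fits with 1 library left out, Egfr and Erbb3 were each called in 11, Erbb2 in 7, Hbegf in 4 and Nrg1 in 3. Without T-ND replicates 3 and 4 the interaction was 2.36 for Nrg1, 1.28 for Egfr, 1.21 for Erbb3, 1.09 for Erbb2 and -1.35 for Hbegf on the log2 scale. Erbb3 alone was called within the libraries without the name suffix.

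**Figure D3:**
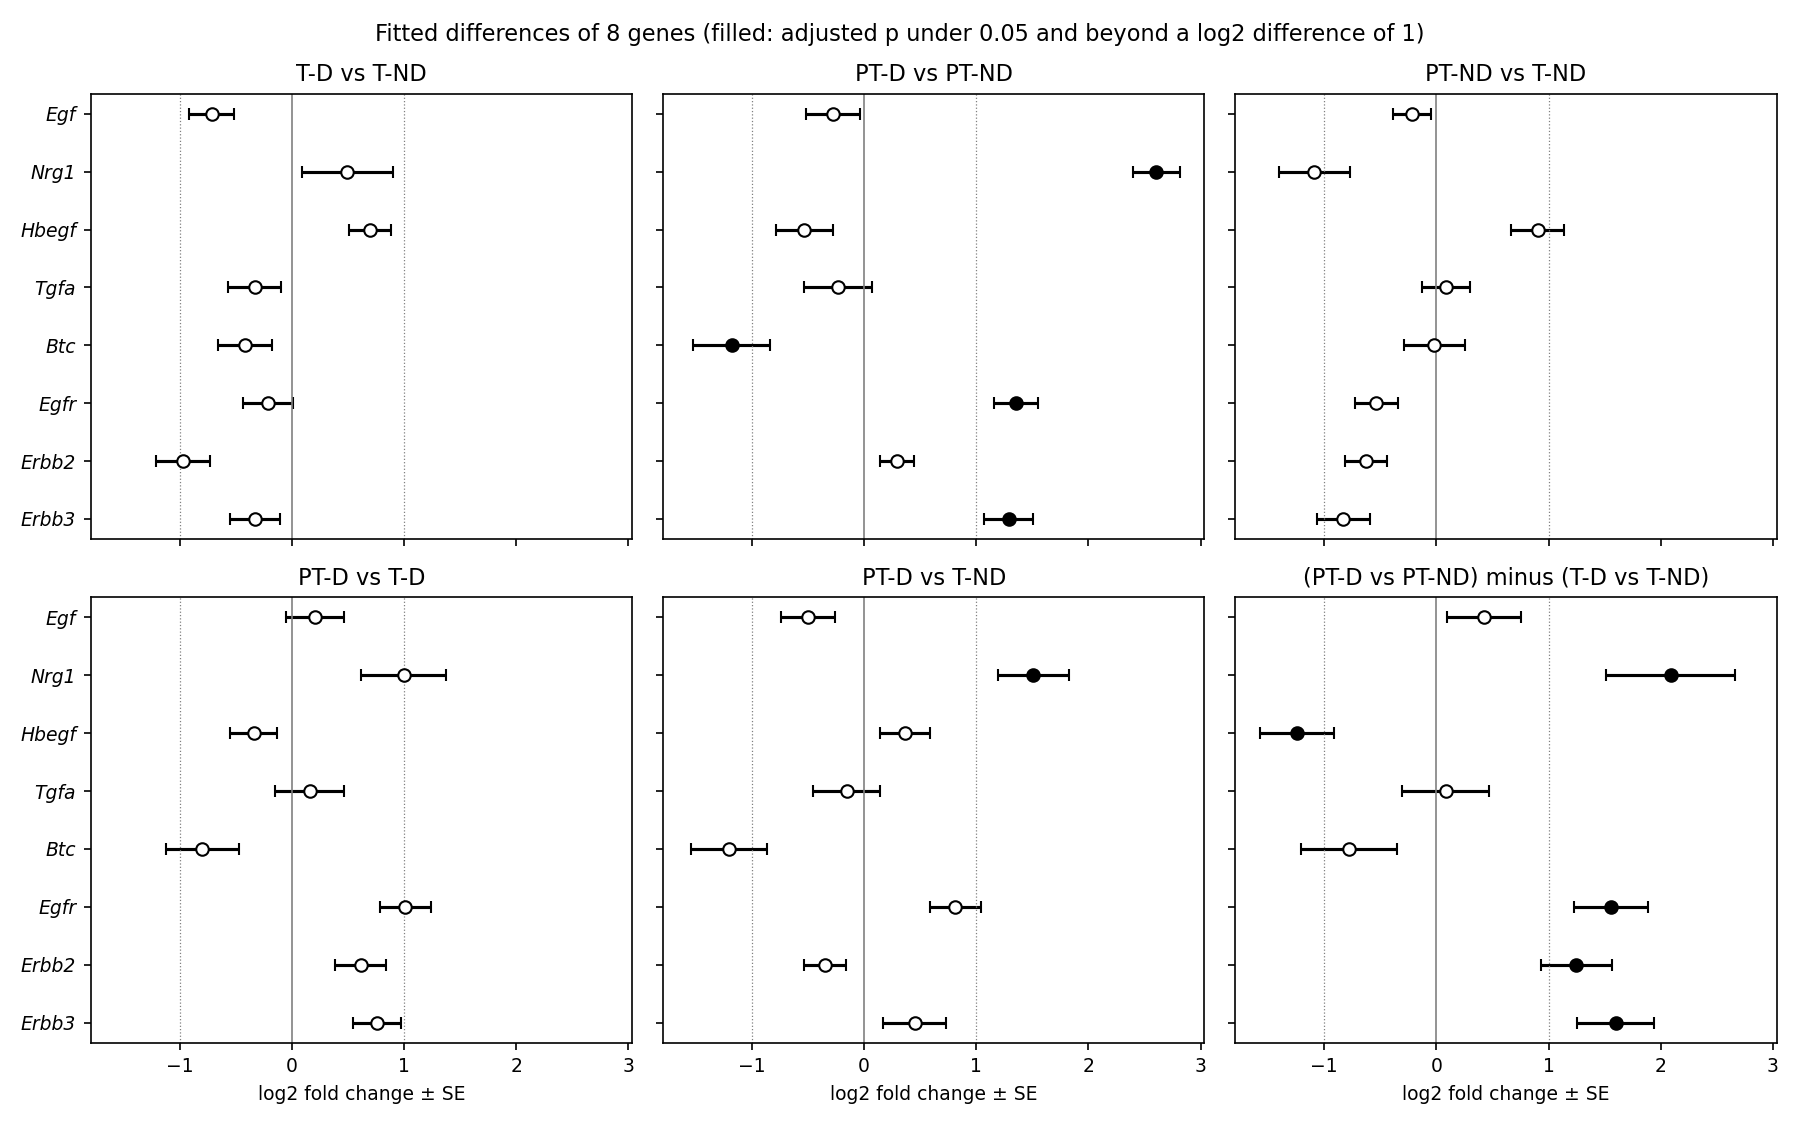
Fitted log2 fold changes with their SE for 8 of the genes in 5 comparisons of groups and in the interaction, with filled points for genes called at an adjusted p under 0.05 and beyond a log2 difference of 1 (dotted lines). In PT-D vs PT-ND, Nrg1, Egfr and Erbb3 are filled on the positive side and Btc on the negative side, and in the interaction all 3 receptors and Nrg1 are on the positive side.

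**Figure D4:**
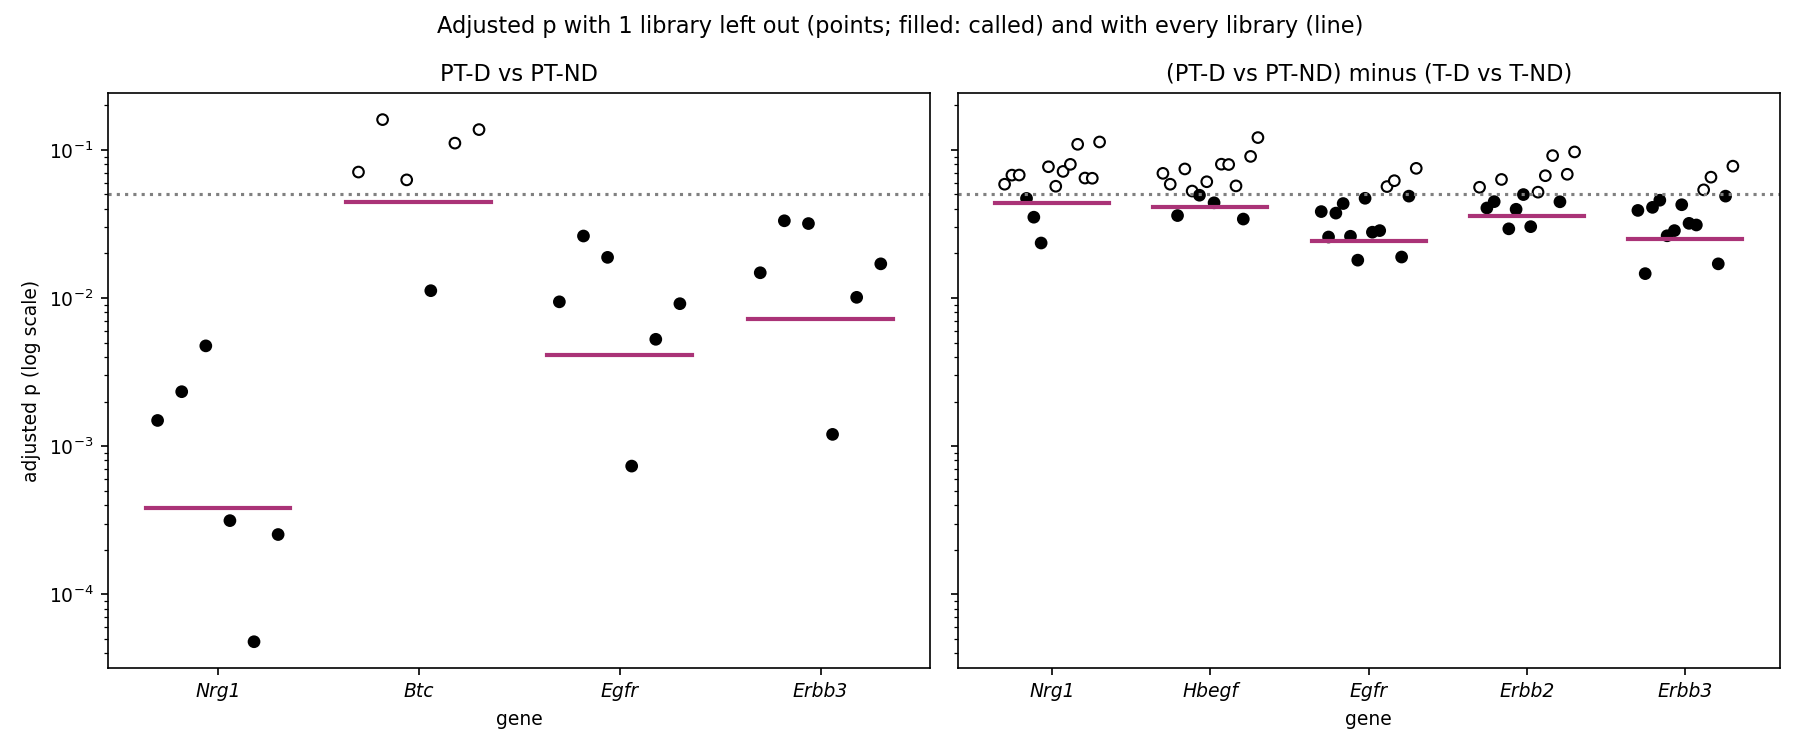
Adjusted p (log scale) of the called genes with 1 library left out in turn, as points, beside the value with every library, as a line, in PT-D vs PT-ND (6 fits) and in the interaction (14 fits). Filled points are called and the dotted line marks 0.05. For Nrg1, Egfr and Erbb3 all 6 points on the left are filled, and on the right the points straddle the dotted line for each gene.

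The effect of preterm birth without STZ was read from PT-ND vs T-ND. None of the 10 genes was called by edgeR or by DESeq2, where 0.0809% of all genes were called by edgeR, and 5 had an unadjusted p under 0.05, as had 10.7% of all genes. PT-ND libraries lay below all T-ND libraries for Nrg1 (log2 fold change -1.09 ± 0.319), Erbb3 (-0.83 ± 0.233) and Erbb2 (-0.63 ± 0.186), 3 of 10 genes against 5.54% of all genes lower without overlap. Egfr differed by -0.54 ± 0.193 and Hbegf by 0.90 ± 0.236. Hbegf had a DESeq2 adjusted p of 0.0423, short of a call by its fold change, where DESeq2 called 0.737% of all genes. Without T-ND replicates 3 and 4, Nrg1 was called (log2 fold change -1.36, edgeR adjusted p = 0.0336).

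The effect of preterm birth among diabetic mice was read from PT-D vs T-D. None of the 10 genes was called by edgeR or by DESeq2, where 0.193% of all genes were called by edgeR, and 5 had an unadjusted p under 0.05, as had 22.3% of all genes. All 3 receptors were higher in every PT-D than in every T-D library, by log2 fold changes of 1.01 ± 0.23 for Egfr (edgeR adjusted p = 0.0706), 0.76 ± 0.213 for Erbb3 (adjusted p = 0.0908) and 0.61 ± 0.228 for Erbb2 (adjusted p = 0.148). These were the 3 of 10 genes without overlap, where 12.4% of all genes were higher without overlap. Nrg1 differed by 1.00 ± 0.378 (adjusted p = 0.156) and Btc by -0.80 ± 0.322 (adjusted p = 0.177). With DESeq2, which called 2.96% of all genes, Egfr had an adjusted p of 0.00527 (log2 0.987) and Erbb3 of 0.0257 (log2 0.735). Only the fold change threshold kept these 2 from a call. In a joint fit of all 14 libraries, 1 gene, Egfr, was called.

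The combination of preterm birth and STZ was read from PT-D vs T-ND. Nrg1 was 2.85-fold higher in PT-D (log2 1.51 ± 0.316, edgeR adjusted p = 0.0408), which made it the 1 gene of 10 called, where 1.45% of all genes were. Btc differed by -1.21 ± 0.34 (adjusted p = 0.0746) and Egfr by 0.81 ± 0.228 (adjusted p = 0.0739), whereas Erbb2 differed by -0.35 ± 0.187 and Egf by -0.50 ± 0.24. Nrg1, Areg and Btc did not overlap between the groups, 3 of 10 genes against 23.2% of all genes. Nrg1 was called with T-ND replicate 2 or 3 left out and in none of the 5 fits without another library, and without T-ND replicates 3 and 4 both Egfr (log2 1.10) and Btc (log2 -1.53) were called beside it. The comparisons share groups, PT-D libraries entering 3 of the 5, so their results are not independent of each other.

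Among the other members of the family, Epgn, Nrg2, Nrg4 and Erbb4 passed the filter on low counts and none was called in any comparison. Erbb4, the remaining receptor, had 248.4 ± 52.8 normalized counts in T-ND, 169.4 ± 23.3 in T-D, 253.7 ± 74.7 in PT-ND and 192.5 ± 28.1 in PT-D (SD). Its log2 fold change was -0.40 ± 0.249 in PT-D vs PT-ND and -0.57 ± 0.204 in T-D vs T-ND, in contrast to the positive values of Egfr and Erbb3 in the former. Of the 9 genes for shedding and trafficking of the ligands none was called in any comparison over all libraries, although in PT-D vs PT-ND Adam17 had an edgeR adjusted p of 0.0106 at a log2 fold change of 0.72 ± 0.138. The median over these 9 genes was 0.368 in that comparison against 0.049 over all genes. Without T-ND replicates 3 and 4, where 6.28% of all genes were called in PT-D vs T-ND, 2.17% in T-D vs T-ND, 0.963% in PT-ND vs T-ND and 1.71% in the interaction, Rhbdf2, which carries ADAM17 to the cell surface, was called higher than in T-ND in PT-D (log2 2.14 ± 0.215), T-D (1.87 ± 0.311) and PT-ND (1.502 ± 0.178).

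Of 26 signal transducers, 1 was called in PT-D vs PT-ND, where 4.95% of all genes were. It was the transcription factor Stat3, which rose by 1.32 ± 0.19 on the log2 scale (edgeR adjusted p = 0.00412). The median over the list was 0.155 against 0.049 over all genes. Without T-ND replicates 3 and 4, Stat3 (1.84 ± 0.166) and Stat5a (1.20 ± 0.194) were also called higher in PT-D vs T-ND, and Stat5a in T-D vs T-ND (1.53 ± 0.246). Of 20 feedback inhibitors, none was called in any pair of groups over all libraries. In PT-D vs PT-ND, though, 7 were higher and 1 lower at an edgeR adjusted p under 0.05, as were 2881 of all 22303 genes in either direction. In the interaction 2 were called higher, where 4.45% of all genes were called. These were Cbl, a ubiquitin ligase that directs EGFR to degradation (1.09 ± 0.298, edgeR adjusted p = 0.0436), and Lrig3 (1.15 ± 0.275, adjusted p = 0.0317). Neither was called without T-ND replicates 3 and 4. Errfi1, an inhibitor of the EGFR kinase and the most abundant gene of that list, differed by -0.06 ± 0.209 in PT-D vs PT-ND, 0.83 ± 0.391 in T-D vs T-ND, 0.52 ± 0.449 in PT-D vs T-ND, 0.58 ± 0.443 in PT-ND vs T-ND and -0.91 ± 0.539 in the interaction, with no call. Without T-ND replicates 3 and 4 it was called higher in T-D (1.94 ± 0.247), PT-D (1.61 ± 0.216) and PT-ND (1.65 ± 0.243) than in T-ND, and lower in the interaction (-1.99 ± 0.322). In that setting Ptpn1, a tyrosine phosphatase, was also called higher in PT-D (1.36 ± 0.201) and T-D (1.36 ± 0.259) than in T-ND. Others called were Cblb (1.19) and Spry1 (-1.06) in PT-D vs T-ND, Lrig1 (1.48) in T-D vs T-ND and Socs5 (1.06) in the interaction.

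Of 10 target genes of MAPK signalling, Myc (1.20 ± 0.163, edgeR adjusted p = 0.0173) and Plaur, the urokinase receptor (1.21 ± 0.245, adjusted p = 0.038), rose in PT-D vs T-ND, and Plaur also rose in PT-ND vs T-ND (1.46 ± 0.214, adjusted p = 0.0442). The median of this list was 0.342 in PT-D vs T-ND against 0.029 over all genes. Of all genes, edgeR called 1.45% in PT-D vs T-ND, 0.0809% in PT-ND vs T-ND and 4.45% in the interaction. Plaur was lower in the interaction (-1.32 ± 0.362, adjusted p = 0.0441), the same sign as Hbegf, whereas Ccnd1 differed by 0.70 ± 0.134 and Ier3 by -0.68 ± 0.231 in PT-D vs PT-ND without a call. None of the 10 was called in T-D vs T-ND, PT-D vs T-D or PT-D vs PT-ND by edgeR over all libraries, and without T-ND replicates 3 and 4 Plaur was called in T-D vs T-ND (1.34 ± 0.314, edgeR adjusted p = 0.0491).

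Of 15 genes for magnesium handling, 2 fell in PT-D vs T-ND, Cldn19, a tight junction claudin of the thick ascending limb (-1.86 ± 0.364, edgeR adjusted p = 0.0344), and Umod, uromodulin (-1.39 ± 0.263, adjusted p = 0.0325). Cldn19 also fell in PT-D vs PT-ND (-1.86 ± 0.186, adjusted p = 0.00111). In the interaction Fxyd2 (-1.14 ± 0.327, adjusted p = 0.0492) and Pcbd1 (-1.30 ± 0.309, adjusted p = 0.0316) were lower. The shares of all genes called were 1.45% in PT-D vs T-ND, 4.95% in PT-D vs PT-ND and 4.45% in the interaction. The median of this list was -0.373 in PT-D vs T-ND and -0.271 in PT-D vs PT-ND, against 0.029 and 0.049 over all genes. Without T-ND replicates 3 and 4, Fxyd2, Pcbd1 and Plaur were not called in the interaction, while Cldn19, Umod, Myc and Plaur were still called in PT-D vs T-ND and Plaur in PT-ND vs T-ND. Trpm6, a magnesium channel, was then called higher in PT-D vs T-ND (1.26 ± 0.326) and in T-D vs T-ND (1.34), and Cldn19 lower in T-D vs T-ND (-1.32).

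Because these are whole kidneys, fewer cells of a type and less RNA per cell cannot be told apart. Summed over 9 markers of the thick ascending limb, a source of Egf, levels were 2940 to 4390 CPM in T-ND, 1630 to 3050 in T-D, 2490 to 3340 in PT-ND and 1170 to 2630 in PT-D. Those of the distal convoluted tubule (6 markers) were 784 to 1840, 1290 to 1680, 976 to 1300 and 1100 to 2280 in the same order. Egf and the thick ascending limb markers were thus both highest on average in T-ND, and the part of cell composition in Egf was not tested. The 9 collecting duct markers summed to 800 to 1230 CPM in T-ND, 666 to 781 in T-D, 729 to 1100 in PT-ND and 418 to 962 in PT-D. Btc averaged 202.8 ± 59.9 normalized counts in T-ND, 153.9 ± 25 in T-D, 200.3 ± 53.6 in PT-ND and 88.48 ± 40.4 in PT-D (SD). Collecting duct medians were 910, 721, 769 and 553 CPM in the same order, and the part of these cells in Btc was not tested.

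Beside the higher Nrg1, Egfr and Erbb3, the summed markers of several cell types had higher medians in PT-D than in PT-ND. Podocyte markers (6) summed to 521 to 682 CPM in PT-D against 298 to 530 in PT-ND, and endothelial markers (8) to 403 to 501 against 214 to 398. Markers of tubular injury (8) summed to 3100 to 3570 in PT-D and 2300 to 4010 in T-D, against 1980 to 2140 in PT-ND and 1760 to 2530 in T-ND. Leukocyte markers (10) summed to 122 to 235 in PT-D and 94 to 127 in PT-ND, and nerve and Schwann cell markers (5) to 14.6 to 17.2 and 11.5 to 15.2. Red blood cell markers (5) summed to 111 to 266 and 11 to 121, and stromal markers (7) to 105 to 298 and 123 to 226. Mitochondrially encoded mRNAs (13) summed to 100000 to 159000 and 108000 to 129000. Proximal tubule markers (10) were lower in PT-D without overlap, with 11900 to 16100 against 18200 to 19100. Medians were also lower in PT-D for urothelial, fat, thick ascending limb, distal convoluted tubule and collecting duct markers. No gene of the podocyte, endothelial, injury or leukocyte lists was at 0 in a whole group, and the part of these cells in the result was not tested.

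Over the 14 libraries, Egfr and Erbb3 varied together (Pearson r = 0.883 of log2 CPM), and Btc ran against both (r = -0.791 with Egfr and -0.736 with Erbb3). Erbb2 had r = 0.423 with Egfr and 0.505 with Erbb3. Nrg1 had r = 0.495 with its receptor Erbb3 and 0.657 with Egfr, and Egf had -0.165 with Egfr. These values describe 14 libraries that share the group differences above.

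The genes outside the family whose pattern over the 14 libraries was most like each member's were found by the same correlation among 12148 genes. For Egfr they were Cdk12 (r = 0.966), H6pd and Dock5, and for Erbb3 they were Atp11b (0.957), Hycc2 and Fbxl20. For Erbb2 they were Ephb3 (0.93), Tulp3 and Zfp422. For Nrg1 they were Sdcbp (0.936), Zfp809 and Trmt1l, for Egf Rbmx (0.904), Angpt1 and Zfp629, and for Tgfa St8sia6 (0.866), Cutal and Ugt3a2. For Hbegf they were Tnfaip3 (0.925), Vcam1 and Csrnp1, and for Btc Lypd2 (0.918), Aqp3, a water channel of the collecting duct, and Slc39a13.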

How the data were processed

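Kidney RNA of 14 female mice was sequenced after poly-A selection and without strand information. Per the study's methods and the submitters' processing notes, the authors trimmed the reads, aligned them to GRCm39 with STAR and tallied the reads that mapped to 1 place. The raw count per gene was deposited, and its unstranded version was used. Reads in the overlap of genes on both strands are missing from them, and counting strand by strand gave 1.087 times the Egf counts, 1.143 times those of Ereg and 1.056 times those of Tgfa. Of 56980 gene IDs, 56236 matched GENCODE M39 without their version.

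The 10 genes and all gene lists were chosen with earlier results of these data known. Genes with more than 10 counts over the 14 libraries (22339, all 10 included) were fitted pairwise on the libraries of each pair in edgeR 4.0.16 (R 4.3.3) with TMM normalization, the two-sided quasi-likelihood test and Benjamini-Hochberg adjustment over all genes, and the interaction on all libraries. The fits were tested on simulated counts. Normalized counts were TMM-scaled to the mean library. SE is the log2 fold change over the square root of F. Likeness used a prior count of 2 and genes averaging 50 normalized counts or more. Named genes were the 10, the called genes of each pathway list (at most 4 per list and comparison, or else from the 2 most abundant) and the 3 most correlated genes per member. Genes named only for their calls without T-ND replicates 3 and 4 were added after their values were seen. Alternatives included DESeq2 1.42.0. Libraries are separate mice, and n of 3 or 4 limits the precision of every value.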

Additional observations from a re-analysis of the deposited data

Results flagged for a closer look

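Of 20 sets of 4 libraries examined (10 genes in T-ND and in T-D), 3 held a library far from the other 3, with a gap to its nearest neighbour above the 95% critical value of Dixon's test, and chance gives about 1 in 20. T-ND replicate 2 had 14498.43 normalized counts of Egf, below the other T-ND libraries (gap 0.832 of the range). T-ND replicate 3 had 1.05 normalized counts of Areg (0.878) and 113.13 of Tgfa (0.861), each below the other T-ND libraries, and this library also stood apart on the first principal component. For Areg this was 1 raw count against 4 or 5 in the other T-ND libraries, a gap within the reach of counting error.

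For 5 genes the difference with STZ in preterm mice differed from that in term mice by the interaction test in edgeR. On the log2 scale, preterm minus term, it was 2.089 for Nrg1, 1.554 for Egfr, 1.248 for Erbb2, 1.599 for Erbb3 and -1.243 for Hbegf. For Nrg1, Egfr and Erbb3 the mean was higher with STZ in preterm mice, and for Egfr and Erbb3 it was slightly lower in term mice, whereas for Erbb2 most of the difference came from the lower level in T-D than in T-ND. PT-ND libraries had the lowest mean of Nrg1, Egfr and Erbb3 of all groups and the highest of Hbegf.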

How the results depend on the processing

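Values in this paragraph are numbers of the 10 genes called. In PT-D vs PT-ND, 4 were called in every alternative that kept all libraries, and 3 to 4 with 1 library left out. In PT-D vs T-ND, 1 was called, against 2 with no filter on low counts, with DESeq2 or with the library-name suffix as covariate, 3 without T-ND replicates 3 and 4, and 0 in a joint fit of all 14 libraries, with the replicate block or within the libraries without the suffix. Leaving out 1 library gave 0 to 2, Btc among them without T-ND replicate 3 or PT-D replicate 1. In PT-D vs T-D, 0 were called, against 1 (Egfr) with no filter or in the joint fit. In T-D vs T-ND, 0 were called throughout. In PT-ND vs T-ND, 0 were called, against 1 without T-ND replicates 3 and 4. In the interaction, 5 were called, against 4 with the library-name suffix as covariate, where Nrg1 was not called, and 3 with the replicate block. There were 0 without T-ND replicates 3 and 4 and 1 within the libraries without the suffix. Leaving out 1 library gave 0 (PT-ND replicate 2 or 3 or PT-D replicate 3) to 5. The causes of these shifts were not tested, but the settings that left out libraries had fewer mice. No fold change called in any setting changed its sign in the same comparison, whereas fold changes never called did, such as those of Egfr and Erbb3 in T-D vs T-ND. The fits within the libraries without the suffix and with edgeR's current quasi-likelihood default, which changed no count, were chosen after the data were seen.

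Replicate numbers do not pair the mice by the labels, and deviations from the group means correlated between -0.285 and 0.299 in the 19 pairs with the same number (median -0.109), against a median of 0.013 in the 54 other pairs. Over all genes, the alternatives, single libraries left out included, gave 28 (without PT-D replicate 2) to 1399 calls (without T-ND replicates 3 and 4) in PT-D vs T-ND (323 as reported), 17 to 661 in PT-D vs T-D (43), 1 to 482 in T-D vs T-ND (15), 594 (without PT-ND replicate 3) to 1501 in PT-D vs PT-ND (1105), 1 (without PT-ND replicate 2) to 213 in PT-ND vs T-ND (18) and 12 to 1648 in the interaction (993). In the interaction, 383 were called without T-ND replicates 3 and 4. Ranked by CPM without length, Egf, Erbb3, Areg and Ereg kept their ranks and the other 6 genes moved. With Spearman in place of Pearson correlation, 0 to 2 of the 3 genes most like each member were the same.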
